A study of Mus musculus with 3 samples.

Results

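Complement is a blood protein cascade that tags microbes and dying cells for uptake, and macrophages are one of its sources outside the liver. Transcripts of 6 complement components that macrophages are known to make were followed here: C1qa, C1qb, C1qc, C3, Cfb and Cfp. They were taken by name, as every probe on the array whose gene name equals one of these symbols, which gave 7 probes for 6 of the 27566 genes on the array. The rule that picks the probes uses names and no measured value, but the members were chosen with earlier results of these data known.

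The cells were J774A.1, a long-established line of mouse macrophages, which spent 6 h in 1 of 3 media: RPMI with 10% fetal bovine serum (called RPMI here), Earle's Balanced Salt Solution, a salt and glucose solution without amino acids (EBSS), or EBSS to which SB202190, which inhibits p38 MAP kinases, had been added at 10 µM. The question behind the series is how amino acid deprivation, and p38 activity during it, alters the macrophage transcriptome. Each medium is represented by 1 sample, read once in the red dye Cy5 and once in the green dye Cy3, on 3 Agilent whole mouse genome arrays arranged as a closed loop: RPMI (Cy5) with EBSS (Cy3) on array 1, EBSS (Cy5) with EBSS plus SB202190 (Cy3) on array 2, and EBSS plus SB202190 (Cy5) with RPMI (Cy3) on array 3. The design text can also be read as RPMI being the base of all 3 media, with serum, EBSS or EBSS and SB202190 added, but the sample labels name each medium separately and were taken as they stand. Serum is stated for RPMI alone, so any difference in serum, amino acids or other parts of the medium cannot be told apart in EBSS against RPMI. The sources used here do not say whether EBSS without inhibitor held the inhibitor's solvent. With 1 sample per medium there is no replicate of the culture, no p-value was computed, and every error below is technical.

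The classical pathway starts when C1q, a hexamer of bundles each built from an A, a B and a C chain, binds antibody, C-reactive protein or dying cells. The A, B and C chains are encoded by C1qa, C1qb and C1qc, which lie side by side on mouse chromosome 4 and are mostly expressed by macrophages and microglia. All pathways meet at C3, the abundant central protein whose fragment C3b coats particles for uptake. Factor B (Cfb) supplies the protease of the alternative pathway that amplifies C3 cleavage, and properdin (Cfp) stabilizes that protease complex.

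No promoter sequence was available for Cfb or for C1qa, the only component that passed the rule used below in EBSS against RPMI. The promoters of the adjacent genes C1qb and C1qc and of C3 are shown because their ratios of EBSS to RPMI differed. Each runs from 250 bases before to 50 after the start of the gene in RefSeq on build GRCm38.p6, on the gene's own strand, which is the minus strand for all 3. Capitals mark a match, on either strand, to GAGGAA, a core letter string of sites for the macrophage factor PU.1, or, in C3, to TATAAA. The positions are chr4:136886151-136886450 for C1qb, chr4:136892865-136893164 for C1qc and chr17:57228087-57228386 for C3.
C1qb: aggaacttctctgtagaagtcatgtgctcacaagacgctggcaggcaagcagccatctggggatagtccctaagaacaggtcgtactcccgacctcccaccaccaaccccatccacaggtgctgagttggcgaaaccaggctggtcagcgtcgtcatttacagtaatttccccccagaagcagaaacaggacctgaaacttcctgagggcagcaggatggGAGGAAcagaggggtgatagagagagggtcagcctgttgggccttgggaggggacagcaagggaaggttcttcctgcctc
C1qc: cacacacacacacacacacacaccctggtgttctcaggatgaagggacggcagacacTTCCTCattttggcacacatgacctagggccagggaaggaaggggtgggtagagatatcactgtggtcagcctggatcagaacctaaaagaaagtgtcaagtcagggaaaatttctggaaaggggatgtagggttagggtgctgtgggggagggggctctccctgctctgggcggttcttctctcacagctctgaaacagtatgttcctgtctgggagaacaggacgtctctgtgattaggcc
C3: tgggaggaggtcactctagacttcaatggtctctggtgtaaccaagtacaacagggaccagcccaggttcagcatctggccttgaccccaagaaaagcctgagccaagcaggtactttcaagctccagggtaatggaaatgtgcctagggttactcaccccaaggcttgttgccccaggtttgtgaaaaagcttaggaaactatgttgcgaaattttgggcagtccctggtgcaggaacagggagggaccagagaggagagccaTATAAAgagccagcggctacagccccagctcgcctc

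Positions of matches are counted from the start of the gene, with negative values before it. GAGGAA matched once in C1qb, at -30, and once in C1qc, at -193. It matched at 7 and at 23 in the promoter of Cfp, and not in that of C3. The string is common, being held by 28.3% of 32851 mouse promoters of the same length. TATAAA matched in C3, at 15, after the start given by RefSeq, and in none of the promoters of C1qb, C1qc and Cfp, against 13.6% of all promoters. The strings GAAANNGAA of interferon response elements (8.56% of promoters), TTCNNNGAA of STAT sites (8.30%) and TGATGNAA of ATF4 composite sites (3.97%) had no match in these 4 promoters. No binding was measured, so a match describes only the letters of the promoter.

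Transcripts of 5 of the 6 genes were read above background, so the label of components made by macrophages held for these 5 at the level of RNA. Their probes were well above background in all 6 channels, that is in both dyes of every medium. Cfb was not well above background in any channel. Its raw intensities lay between 105 and 231 units, so no ratio is given for it. All 9 macrophage markers examined, among them Csf1r, Cd68 and Spi1, were above background, whereas the T cell, B cell, hepatocyte, fibroblast and epithelial markers (0 of 3 each) were not. Of the 4 granulocyte markers only S100a8, and the single erythroid marker Hba-a1, were above background.

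The probe for C1qa (mm8, chr4:136168570-136168629, minus strand) gave its highest readings in RPMI. Raw intensity less local background was 1575 in Cy5 and 1554 in Cy3 in RPMI. In EBSS it was 242 in Cy5 and 356 in Cy3, and in EBSS with SB202190 it was 440 in Cy5 and 422 in Cy3. Both RPMI readings were thus above all 4 readings without RPMI, in raw units and also after normalization. No share of all genes with such a separation is given beside this.

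After normalization the C1qa level was 10.40 (Cy5) and 10.77 (Cy3) on the log2 scale in RPMI, 9.13 and 9.22 in EBSS, and 9.34 and 9.25 in EBSS with SB202190. The log2 ratio of EBSS to RPMI was -1.30 with a technical standard error of 0.11, a level 2.46-fold lower in EBSS. The array that held both media gave -1.17, and the route over arrays 2 and 3 gave -1.55. Compared within a dye, where a dye bias of the probe plays no part, EBSS lay below RPMI by a level difference of -1.27 in Cy5 and -1.54 in Cy3. C1qa therefore fell in EBSS by the rule used here: a log2 ratio of at least 1 in size, with at least 0.5 and the same sign along both routes, on a probe above background.

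The size of the fall in C1qa depended on the background correction and scaling. It was -2.24 with the scanner software's own ratios and -0.67 when arrays were centred on their median, and in the latter case the call was lost. Median centring, which unlike loess leaves trends of the ratio with intensity in place, moved the median of all measured genes to 0.81. Relative to that median C1qa was at -1.48. The cause of the shift was not tested.

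The C1qc probe (chr4:136161927-136161986, minus strand) had a smaller difference of the same kind. Its normalized level was 11.03 (Cy5) and 11.07 (Cy3) in RPMI, 10.25 and 10.19 in EBSS, and 10.32 and 10.11 with SB202190. Here too the readings in RPMI did not overlap with those in the other media, without a share of all genes to set beside it. The log2 ratio of EBSS to RPMI was -0.77 ± 0.11 (technical SE), that is 1.70-fold lower, with -0.84 on the array of both media and -0.62 along the other path. This lies below the 2-fold rule, so C1qc was not counted as lower. With median centring its ratio was 0.12, which is -0.69 relative to the median of all genes. With the scanner software's ratios it was -1.10, and C1qc was then counted as lower. Raw intensity less local background for C1qc was 2623 (Cy5) and 1986 (Cy3) in RPMI. In EBSS it was 892 and 763, and with SB202190 1138 and 853.

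The C1qb probe (chr4:136152739-136152798, minus strand) differed little between the media after normalization. In raw intensity less local background both RPMI readings were the highest, at 738 in Cy5 and 748 in Cy3. Raw readings were 436 and 505 in EBSS, and 457 and 537 with SB202190. Its normalized levels were 9.67 (Cy5) and 9.86 (Cy3) in RPMI, 9.56 and 9.70 in EBSS, and 9.48 and 9.56 with SB202190. In these levels RPMI and EBSS overlapped across dyes, while within a dye EBSS was lower by a level difference of -0.11 (Cy5) or -0.16 (Cy3). The log2 ratio of -0.11 ± 0.11 was about the size of its technical error, and the routes through the loop differed in sign (0.03 and -0.38). Under median centring it was 0.54, or -0.27 relative to the median of all genes.

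**Figure D1:**
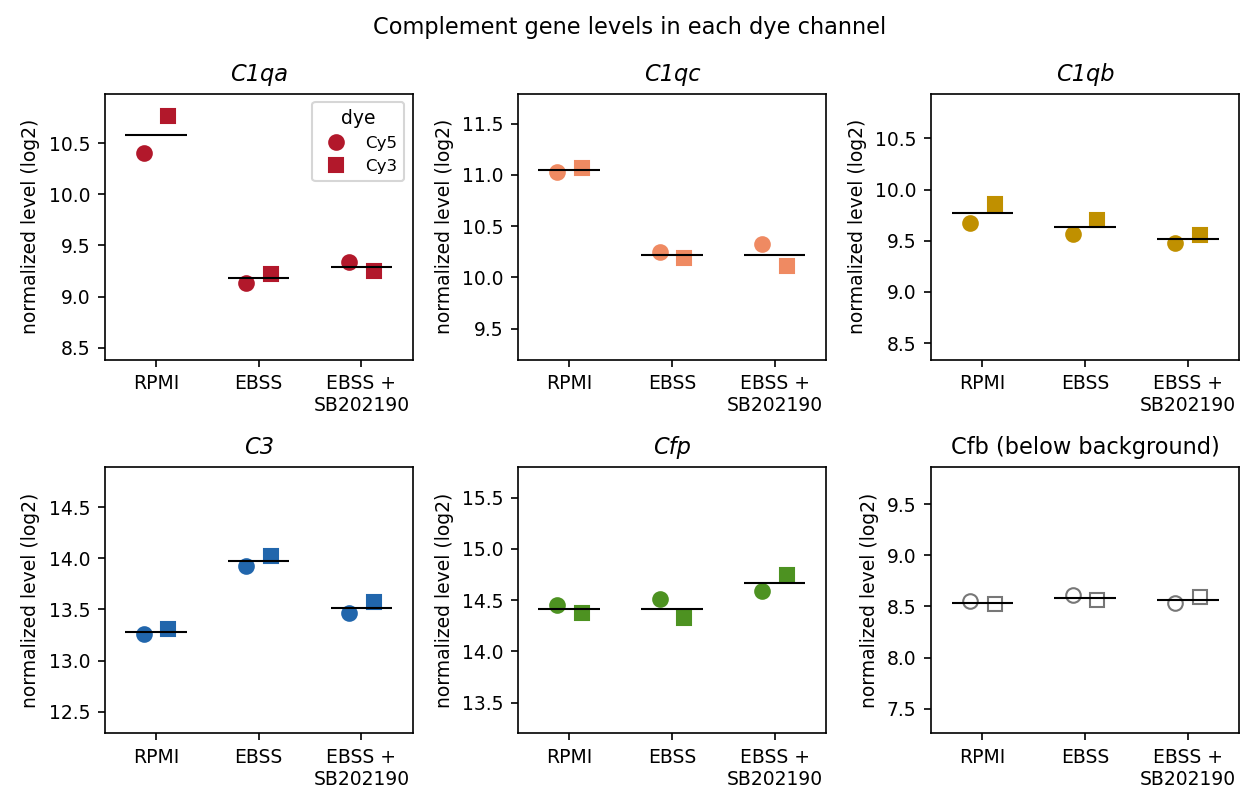
Normalized level (log2) of each complement gene in RPMI, EBSS and EBSS with SB202190, with circles for Cy5, squares for Cy3, a line at the mean of both dyes and open symbols where the probe was not above background. Each vertical axis covers the same span of log2 units around the gene's own mean, and levels cannot be compared between genes. C1qa and C1qc are highest in RPMI, C3 is highest in EBSS, and Cfb is not above background in any channel.

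The 3 chains of C1q thus gave 3 different ratios, although their genes are neighbours. The log2 ratio of EBSS to RPMI was lower for C1qa than for C1qb by -1.19 ± 0.15 (technical SE of the difference), lower for C1qa than for C1qc by -0.53 ± 0.15, and lower for C1qc than for C1qb by -0.66 ± 0.15. A constant shift of an array cancels in a difference between genes on that array. Trends of the ratio with intensity do not cancel, so median centring in place of loess can change these differences. All 3 kept their sign in each of the 11 alternative analyses. Those that change only the choice among probes, the filter on dim probes or the threshold leave these differences as they are. The authors' series table repeats the scanner software's ratios. A kept sign does not set a difference apart from its error, as C1qa minus C1qb with SB202190 in EBSS, 0.13 ± 0.15, kept its sign too. In EBSS against RPMI, C1qa minus C1qb ranged from -1.91 to -1.14. C1qa minus C1qc ranged from -1.14 to -0.34 and C1qc minus C1qb from -0.86 to -0.24. Each chain was read by a single probe near one place in the transcript, so these are differences between probes.

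C3 had its highest level in EBSS. Its bright probe (chr17:56889328-56889387, minus strand) is printed in 10 spots per array, and its normalized level was 13.26 (Cy5) and 13.31 (Cy3) in RPMI, 13.93 and 14.02 in EBSS, and 13.46 and 13.57 with SB202190. The 3 media did not overlap, and in both dyes the order was RPMI, EBSS with SB202190, EBSS. The share of all genes with such a separation is not given here. Raw intensity less background was 13663 and 9188 in RPMI (Cy5 and Cy3), 17389 and 11761 in EBSS, and 13021 and 9348 with SB202190. In raw units RPMI and EBSS with SB202190 were close to each other within each dye, and EBSS stood above both.

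The log2 ratio of C3 in EBSS to RPMI was 0.67 ± 0.18 (technical SE), or 1.60-fold, with 0.76 on the array of both media and 0.51 along the other path. It did not reach the 2-fold rule. The spots of the probe agreed closely: over the 8 spots read on all 3 arrays the mean ratio was 0.68 ± 0.02 (SD over spots), from 0.65 to 0.71. This spot SD covers printing and reading of the spots, but not errors that all spots of a probe share on an array. The technical SE takes those in, but not an error shared by all probes of like intensity on an array.

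Of the 115 measured probes printed in 10 spots, C3 had the 11th highest ratio. With median centring its ratio was 1.95, or 1.14 relative to the median of all genes, and it then passed the 2-fold rule. A further C3 probe (chr17:56910450-56910607, minus strand) was not above background in any channel and gave no level.

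**Figure D2:**
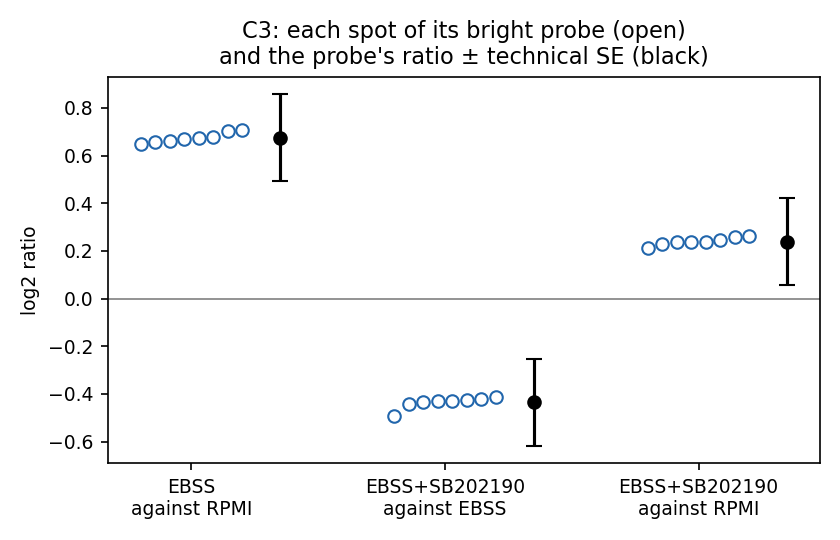
Log2 ratio of each of the 8 spots of the bright C3 probe read on all 3 arrays (open circles) and of the probe with its technical standard error (black), for the 3 comparisons of media. All spots lie above 0 for EBSS against RPMI (0.65 to 0.71) and below 0 for EBSS with SB202190 against EBSS.

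Cfp, the properdin gene, is read by a probe on chromosome X (chrX:20082575-20082634, minus strand). Its normalized level was 14.46 (Cy5) and 14.37 (Cy3) in RPMI, 14.51 and 14.32 in EBSS, and 14.59 and 14.74 with SB202190. RPMI and EBSS overlapped. The log2 ratio of EBSS to RPMI was -0.09 ± 0.18 (technical SE), smaller than its error, and with median centring it was 1.26, or 0.45 relative to the median of all genes. The Cfb probe (chr17:34464613-34464969, minus strand), for the partner that properdin stabilizes, gave no level in any medium.

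Set against the whole array, 1 of the 5 measured complement components (C1qa) was lower in EBSS than in RPMI and 0 were higher, while 2.82% of the 11872 measured genes were lower and 4.48% higher. The median ratio of the 5 was -0.11, and that of all measured genes 0.00. Only 1.17% of measured genes had a lower ratio than C1qa, and 5.51% a lower one than C1qc. C1qb (35.7% of genes lower) and Cfp (37.3%) lay in the middle of the distribution, and C3 had 91.2% of genes below it. With the rule relaxed to a log2 ratio of at least 0.6, C1qa, C1qc and C3 were counted, 3 of 5, where 17.5% of all measured genes were.

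**Figure D3:**
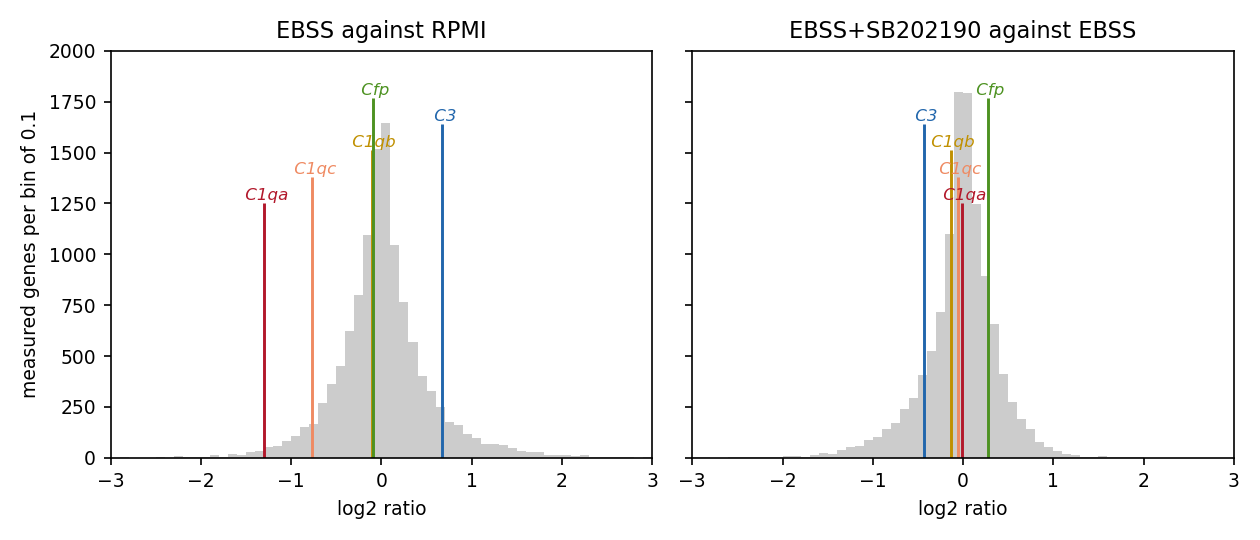
Number of measured genes in each bin of log2 ratio (bin width 0.1) for EBSS against RPMI and for EBSS with SB202190 against EBSS, with the ratios of the 5 measured complement genes as vertical lines, whose heights serve only to separate the names. For EBSS against RPMI, C1qa at -1.30 and C1qc at -0.77 lie on the low side and C3 at 0.67 on the high side, while for SB202190 in EBSS all 5 lie between -0.44 and 0.27.

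SB202190 added to EBSS moved none of the complement components past the rule. In that comparison 0 of 5 were higher and 0 lower, while 0.889% of the 11692 measured genes were higher and 2.93% lower; with the rule at 0.6 it was again 0 of 5, against 12% of genes. The median ratio of the 5 was -0.06. C1qa, the component that fell in EBSS, had a ratio of -0.01 ± 0.11 (technical SE) with the inhibitor, with routes of 0.12 and -0.26.

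The readings of C1qa with and without SB202190 in EBSS lay close together after normalization, and both pairs stayed below RPMI. In raw units less background the readings were higher with the inhibitor, at 440 against 242 in Cy5 and 422 against 356 in Cy3, and with the scanner software's ratios its value was 0.41, below the rule. C1qc had a ratio of -0.06 ± 0.11 and C1qb of -0.14 ± 0.11. The differences between the chains in this comparison were 0.05 to 0.13 in size with a technical SE of 0.15, so no difference between chains was resolved.

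C3 was lower with the inhibitor by a log2 ratio of -0.44 ± 0.18, with routes of -0.35 and -0.60 and with 0 of 8 spots above 0. Only 13.2% of measured genes had a lower ratio. With median centring it was -1.24, or -0.79 relative to the median of all genes. Cfp had a ratio of 0.27 ± 0.18, with routes of 0.23 and 0.36, and 81.6% of genes lay below it. Its direction turned with median centring, to -0.57. C3 minus Cfp was -0.71 ± 0.26 (technical SE) in this comparison and stayed below 0 in all 11 alternatives, between -0.96 and -0.49. The alternatives that change only the filter on dim probes or the threshold cannot move this difference. As EBSS is the sample shared by this comparison and the one with RPMI, an error in that sample would move C3 in opposite directions in each.

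**Figure D4:**
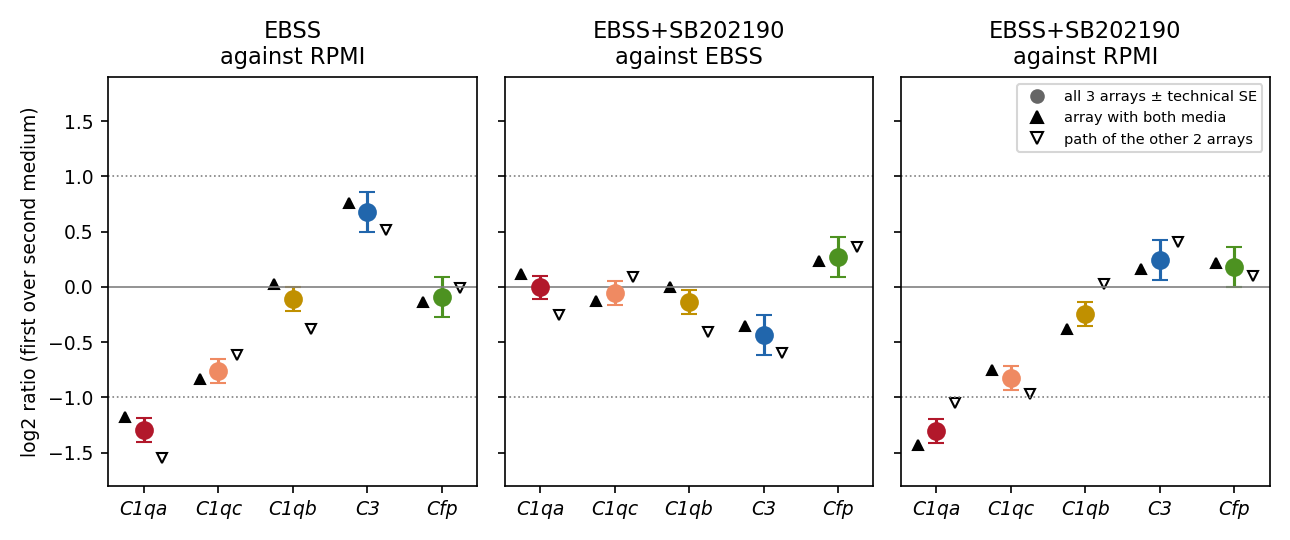
Log2 ratios of the 5 measured complement genes in the 3 comparisons of media, as least-squares estimates over all 3 arrays with technical standard errors (circles), from the array that held both media (filled triangles) and from the path through the other 2 arrays (open triangles), with dotted lines at the 2-fold rule. C1qa lies at -1.30 in EBSS and -1.31 in EBSS with SB202190, both against RPMI, and at -0.01 between these media.

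Cells in EBSS with SB202190 were then set against those in RPMI. Here again 1 of 5 was lower (C1qa) and 0 were higher, where 2.43% of the 11863 measured genes were lower and 1.47% higher. C1qa had a ratio of -1.31 ± 0.11 (2.47-fold lower), with routes of -1.43 and -1.05. Its call was lost when arrays were set to equal spread (-0.97) or centred on the median (-0.85).

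C1qc had a ratio of -0.83 ± 0.11 (1.77-fold lower), with -0.75 and -0.97 along the routes, and was counted only under the rule of at least 0.6, as 1 of 2 members with C1qa (10.9% of all genes). C3 had a ratio of 0.24 ± 0.18 and Cfp one of 0.18 ± 0.18, close in size to their technical errors. C1qb was at -0.25 ± 0.11, and its routes differed in sign (-0.38 and 0.02). The order of C1qa levels over the media was therefore RPMI above both EBSS media, which did not differ from each other beyond their technical error. The same order held for C1qc.

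The C1qa pattern was compared with that of every measured gene by the distance between their log2 ratios, those of EBSS to RPMI and of SB202190 within EBSS, over 3 media. The nearest of 11530 genes was Ubash3b, which encodes a phosphatase that dampens receptor signalling, with ratios of -1.28 and 0.00. BC025076 (-1.35 and 0.01) and Zfp618 (-1.36 and -0.05) followed. In all, 52 genes lay within a distance of 0.25.

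Most genes of the rest of the complement system were not above background. Of 45 other complement genes on the array, 11 were above background in at least 1 medium: 3 of 11 for the classical and lectin pathways, 1 of 7 membrane regulators and 7 of 11 receptors. Cfd, the protease that activates factor B, the 7 genes of the terminal pathway and the 8 soluble regulators were not above background. In EBSS against RPMI 0 of the 11 were higher and 0 lower, with a median ratio of 0.08, where 4.48% of all measured genes were higher and 2.82% lower, so a count of 0 does not set these 11 apart.

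Among the classical pathway genes, C1ra, a protease that C1q carries, had a ratio of -0.13 in EBSS, and Fcna, a ficolin of the lectin pathway, one of 0.26. Masp1 was above background in RPMI only, on a dim probe (mean log2 intensity 8.71), and had a ratio of -0.28. Its other probes were not above background in any medium. Cr1l, a membrane regulator of C3 cleavage, had a ratio of 0.22. C5ar2, a receptor for C5a, had the highest value of the receptors in EBSS, 0.73, below the rule.

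With SB202190 in EBSS, 1 of the 10 measured other genes fell and 0 rose, where 2.93% of all measured genes were lower and 0.889% higher. It was C3ar1, the receptor for the C3 fragment C3a, with a ratio of -1.60 and, on its further probe, -1.21. Its ratio in EBSS against RPMI was 0.20. C5ar2 had a ratio of -0.83 with the inhibitor, short of the rule. The integrin chains of complement receptor 3, which takes up particles coated with C3 fragments, had ratios of -0.15 (Itgam) and -0.20 (Itgb2). Against RPMI, C3ar1 was again the 1 of 11 that was lower, at -1.40, where 2.43% of all measured genes were.

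**Figure D5:**
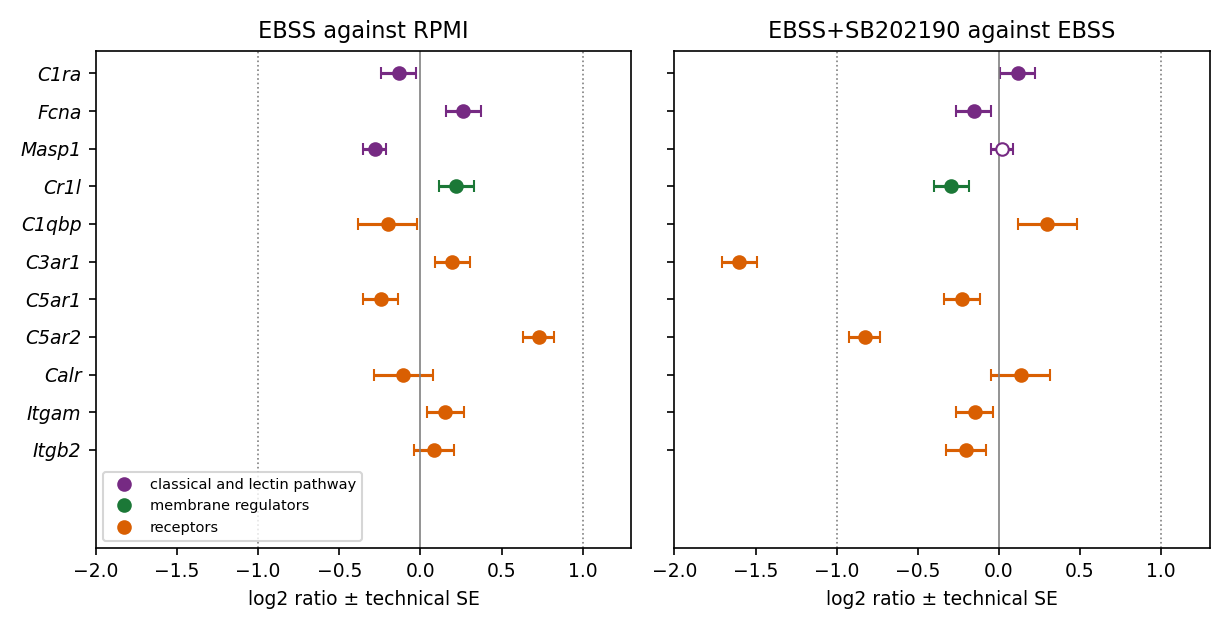
Log2 ratios with technical standard errors of the 11 other complement genes that were above background in at least 1 medium, for EBSS against RPMI and for EBSS with SB202190 against EBSS, coloured by group, with an open circle where the gene was not measured in the compared media and dotted lines at the 2-fold rule. C3ar1 at -1.60 with SB202190 is the only one past the rule.

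The 9 macrophage markers were read beside the C1q genes. In EBSS against RPMI 0 of 9 were higher and 0 lower (4.48% and 2.82% of all measured genes), with a median ratio of -0.14 and a range from -0.76 to 0.41. Csf1r, the receptor for macrophage colony-stimulating factor, had a ratio of -0.76, Spi1, which encodes PU.1, one of -0.70 (routes of -0.27 and -1.54), and Cd68, a lysosomal glycoprotein, one of 0.41. With SB202190 in EBSS 1 of 9 was lower, the Fc receptor gene Fcgr1 at -1.31, where 2.93% of all genes were, and 0 were higher. With SB202190 against RPMI it was again 1 of 9, Fcgr1 at -1.38, where 2.43% of all genes were lower. Spi1 was at -1.09 in that comparison, but its routes differed (-1.52 and -0.25), so it was not counted. The part of these markers in the C1qa and C1qc ratios was not tested. A lower level per cell and a smaller share of cells that express a gene cannot be told apart in RNA from a whole culture.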

How the data were processed

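The arrays were quantified by Agilent Feature Extraction 9.5.3.1, per the submitters' processing notes. Mean and local background intensities of each spot, without normalization, were deposited, with a log10 ratio of processed Cy5 over Cy3 signals, per the file headers. Marks of other kinds (above background, saturated, outlying, control) were deposited beside them. The deposited series table of the authors holds log2 ratios that equal the processed ones, uncentred (medians -0.0854, -0.0766 and -0.166). Intensities were corrected with normexp (offset 50) and normalized by loess in limma 3.58.1 (R 4.3.3), without control spots (1639 of 45018) and outlier spots (136 to 178 per array). No spot was saturated, and 40.1% to 49.9% were well above background in a channel. Channel levels were scaled by Aquantile. A gene was taken at its brightest probe. Ratios are least-squares estimates over the loop. The technical error comes from a robust SD of the sum of ratios around the loop, in 30 bins of intensity, scaled down to the error of a least-squares ratio. Scripts were tested on simulated data and used Python 3.11.15, numpy 2.4.6, pandas 2.3.3 and matplotlib 3.10.9. Genes were named through a RefSeq table of GRCm38.p6 (members by the names in the files), and probe positions are those of the files, on mm8. All members were described, with counts for the other complement genes and values for those counted as higher or lower; other list members and markers named were picked once their values had been seen. Members, lists and rules were chosen with earlier results of these data known. The number of arrays limits the precision.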

Additional observations from a re-analysis of the deposited data

How the results depend on the processing

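Of 11 alternatives, which were another offset (10), no background correction, median centring, the scanner software's ratios, the authors' series table, equal spread, either route through the loop alone, the median over probes, no filter on dim probes and a threshold of 0.6, none counted a member with SB202190 in EBSS. In EBSS against RPMI the count of 1 member became 2 with median centring (C3 and Cfp higher, C1qa not counted), 2 with the scanner software's ratios and 2 with the authors' series table (C1qa and C1qc lower), and 3 at the threshold of 0.6. With SB202190 against RPMI the count of 1 became 0 with median centring, 0 with equal spread and 2 at 0.6. Of the other complement genes in EBSS against RPMI, 0 as reported became 7 with median centring, 1 without background correction (C5ar2 higher), and 2 with the scanner software's ratios or the authors' series table (C5ar2 higher, Masp1 lower). Masp1, on a dim probe, was above background in RPMI only, so it entered the counts only through that medium. With SB202190 in EBSS, 1 became 2 by the addition of C5ar2 (lower) without background correction, with median centring, the scanner software's ratios, the series table, equal spread, the path of the other 2 arrays or the 0.6 threshold. Against RPMI, 1 became 2 (Masp1 lower) with the scanner software's ratios and the series table. The cause was not tested. Over all genes, higher calls were 61.4% of calls in EBSS against RPMI, 99.5% (4252 of them higher, 23 lower) with median centring and 46.8% (961 and 1093) with the scanner software's ratios. For SB202190 in EBSS they were 23.3%, 2.29% (18 and 769) and 50.4% (783 and 771), and against RPMI 37.7%, 62.8% (152 and 90) and 38.1% (475 and 773). No paired analysis was possible because each medium has 1 sample, and for the same reason no replicate could be left out.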

Other observations

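Genes next to the complement components in the gene order of GRCm38.p6 were read as well. They were chosen by position after the values of the components were known. The C1q genes are flanked by Ephb2 and Epha8, neither above background, and beyond Epha8 by Zbtb40, whose log2 ratio in EBSS against RPMI was 0.94. Of the neighbours of C3, Trip10 had ratios of 0.86 in EBSS against RPMI and -0.57 with SB202190 in EBSS, beside 0.67 and -0.44 for C3. Gpr108, beyond Trip10, had 0.09 and 0.29, and Tnfsf14 on the other side of C3 had -0.16 and 0.31. C2, the complement gene next to Cfb, was not above background, while Nelfe on the other side of Cfb was measured, with a ratio of -0.27 in EBSS.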
